A study of Mus musculus with 123 samples.

Results

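The regions described here carried a peak of histone H3 lysine 4 methylation in the list named ES3 and none in the list named ES1. They were found by merging touching or overlapping peaks of the lists ES1, ES2 and ES3 on chromosomes 1 to 19 of the mouse build mm9. Of 30974 merged regions, 1526 (4.93%) met this rule. A subset of 903 was called in ES3 alone, and a subset of 623 was called in ES2 and ES3. Both subsets were chosen by the presence and absence of peaks in these same lists, so their ES1 status is a description and carries no test.

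The series profiled mouse cells with droplet-based chromatin immunoprecipitation sequencing, a method that ligates a barcode to the chromatin of each cell before cells are pooled. Its 123 labelled libraries used an antibody to H3K4me2 (86 libraries) or H3K4me3 (37 libraries). The cells were V6.5 embryonic stem cells grown with serum and leukemia inhibitory factor (LIF), embryonic fibroblasts from a commercial source, and cells of the blood progenitor line EML, and the labels name no drug and no edited allele. V6.5 is an established mouse stem cell line, and 59 H3K4me2 libraries held stem cells only, while the others held fibroblasts (3 libraries) or mixtures and pools of 2 cell types (24 H3K4me2 and 37 H3K4me3 libraries). The 3 lists are read here as stem cell subpopulations from their names and the series title. No label ties a library, a mark or a number of cells to a list, so each list counts as 1 sample with no replicate, and no difference between lists was tested.

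Methylation of H3 lysine 4 is laid down by the SET1 and MLL enzyme families. Trimethylation concentrates at the starts of active and poised genes, and dimethylation extends over these starts and over enhancers. Stem cells cultured in serum with LIF are known to be a mixture of interconverting states, and the comparison of the lists asks which marked regions differ among such states. Genes, stem cell markers and sequences at these regions were not analysed here, since the reference tables at hand belong to another build than mm9, and the regions are therefore named by position.

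Depth was close between the lists that define the rule. The reads recovered from the deposited scores summed over chromosomes 1 to 19 to 2398602 for the ES1 list and 2387552 for the ES3 list, with 2663168 for ES2. Per kb of chromosome this was 0.970, 0.966 and 1.08 reads. The autosomal lists held 25878 (ES1), 21202 (ES2) and 12239 (ES3) peaks. On each of the 19 autosomes, the weakest ES1 peak and the weakest ES3 peak had equal reads. All intervals given are exact 95% intervals (Clopper-Pearson for shares, Poisson for reads), which cover counting error only.

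ES3 regions without an ES1 peak were the minority of the ES3 list. They made up 1526 of the 11271 regions with an ES3 peak, or 13.5% (12.9 to 14.2), which is the share that the rule itself fixes. In the opposite direction, 15807 of the 25552 regions with an ES1 peak lacked an ES3 peak, or 61.9% (61.3 to 62.5). Both shares depend on the lengths of the lists: with 11271 regions holding an ES3 peak, at least 55.9% of the ES1 regions had to lack one. The count of 1526 also depended on the lists and on the rule. It was 5144 with ES1 and ES2 shortened to the 12239 peaks of ES3, and 2609 where ES1 had to cover 50% of the ES3 bases to count as present. Each of the 1526 regions held exactly 1 ES3 peak. These peaks covered 1.70 Mb and held 19600 reads, 9.13% of the reads inside autosomal ES3 peaks and 0.821% of all autosomal ES3 reads.

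The edge of the rule was narrow in base pairs. The closest regions inside it lay 3 bp from an ES1 peak, at chromosome 1, 138501458 to 138501958, with 8 ES3 reads, and at chromosome 4, 133912620 to 133913237, with 11 ES3 reads. The closest ES3 peaks outside it shared 1 bp with an ES1 peak on chromosome 13, 104967920 to 104970116, with 18 reads, and 4 bp on chromosome 13, 99688201 to 99688701, with 9 reads. A further 73 ES3 peaks touched no ES1 peak themselves but were joined to one through an ES2 peak, and the rule left them out. Of the 12239 ES3 peaks, 1599 touched no ES1 peak.

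The ES3 peaks of these regions were narrow and held few reads. In regions called in ES3 alone, the peaks ranged from 500 to 3549 bp with a median of 940 bp. In regions shared with ES2 they ranged from 500 to 4172 bp with a median of 1057 bp. ES3 peaks of regions called in ES1 and ES3 without ES2 had a median of 1201 bp, and those of regions called in all 3 lists had a median of 1692 bp. No ES3 peak of the 1526 regions reached 5 kb. In regions of ES1 and ES3 without ES2, 3 of 1545 ES3 peaks did, and in regions of all 3 lists 440 of 9168. Peaks of 500 bp, the shortest length in the lists, or 1 bp more made up 22.4% (19.7 to 25.2) of the ES3-alone peaks. They made up 15.2% (12.5 to 18.3) of those shared with ES2. The share was 13.0% (11.4 to 14.8) in regions of ES1 and ES3 without ES2, an interval that overlaps that of the peaks shared with ES2. In regions of all 3 lists it was 6.29% (5.81 to 6.81).

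Read numbers followed the widths. The deposited files give an inner interval for each peak, and reads are known for that interval only. ES3-alone peaks held 8 to 28 reads with a median of 12, and ES3 peaks shared with ES2 held 8 to 38 with a median of 13. The medians were 13 in regions of ES1 and ES3 without ES2 and 15 in regions of all 3 lists. The score, which is the read density of the inner interval relative to the mean of its chromosome, ran the other way. Its median was 14.9 in ES3-alone peaks and 14.8 in peaks shared with ES2, against 13.5 and 12.5 in the same comparison groups. The members were thus short peaks of higher local density and fewer reads at the median, and none held one of the 10 highest scores of any list. Their highest score ranked 15 among the 12239 ES3 peaks.

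To see how far the ES3 reads of each region stood above what was called in ES1, each ES3 peak was set beside the ES1 peaks of its chromosome whose inner interval was at least as long. The fewest reads in any of those ES1 peaks is called the ES1 minimum below. It is a number of reads at which ES1 did call a peak of that length or longer, and it does not give the ES1 reads at the region, which are unknown where no peak was called. ES3-alone peaks exceeded the ES1 minimum by a median of 1 read, and ES3 peaks shared with ES2 by a median of 2. At or below the minimum lay 28.5% (25.5 to 31.5) of the ES3-alone peaks and 24.1% (20.8 to 27.6) of those shared with ES2. The share was 21.6% (19.6 to 23.8) in regions of ES1 and ES3 without ES2. In regions of all 3 lists it was 17.0% (16.3 to 17.8), and over all ES3 peaks 18.8% (18.1 to 19.5). At most 2 reads above the minimum lay 76.6% (73.7 to 79.4) and 69.2% (65.4 to 72.8) of the 2 subsets. ES3 peaks in regions of ES1 and ES3 without ES2 gave 67.4% (65.0 to 69.8) by the same measure, and those in regions of all 3 lists 51.1% (50.1 to 52.2). All ES3 peaks gave 56.0% (55.1 to 56.9). On each autosome the weakest ES1 and ES3 peaks had equal reads, so both lists had a like floor for calling. The groups also differ by the ES1 status that the rule used. These medians and shares are therefore a description and carry no test.

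**Figure D1:**
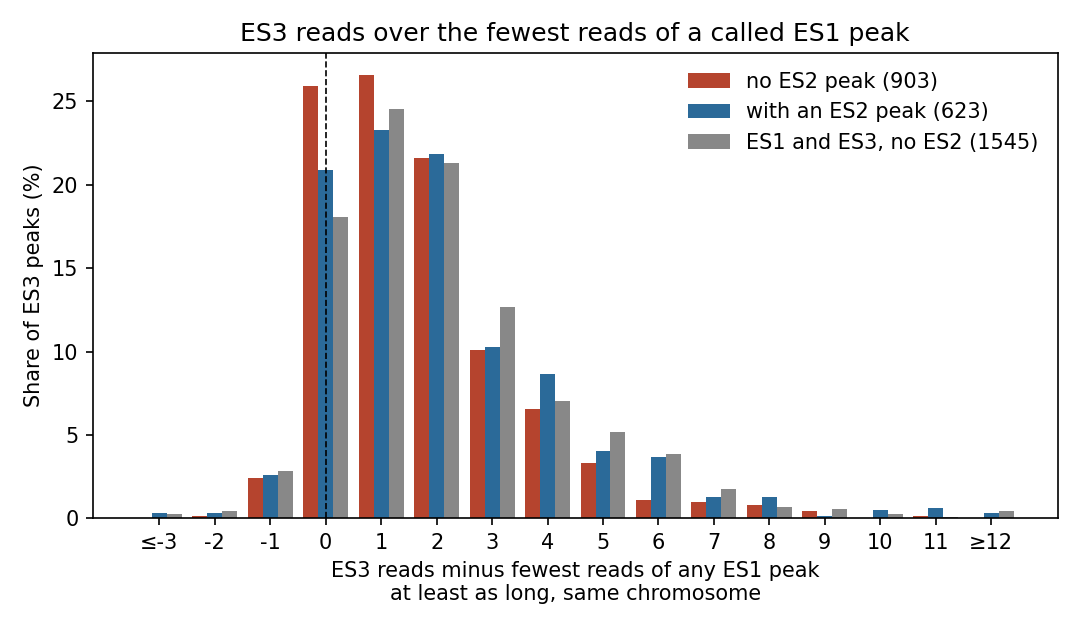
Bars give the share of ES3 peaks (%, y axis) by the number of reads above the ES1 minimum (x axis, with the end bins pooled), for regions of ES3 alone (red), of ES2 and ES3 (blue), and of ES1 and ES3 without ES2 (grey); the dashed line marks a read number equal to the minimum. All 3 groups crowd between 0 and 2 reads above it, with medians of 1, 2 and 2 reads.

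Counting error was then set against the ES1 minimum. The lower Poisson limit of the ES3 reads lay above the ES1 minimum in 27 of the 1526 regions, or 1.77% (1.17 to 2.56), against 7.37% of all ES3 peaks with an ES1 minimum. That contrast is the one the rule used, and nothing is read from it. The 27 regions comprised 12 of ES3 alone and 15 shared with ES2. They were counted after the values were seen, and some of them are described below.

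Among regions called in ES3 alone, the most reads lay on chromosome 9, 63773712 to 63777179. Its ES3 peak held 28 reads (18.6 to 40.5) over 3468 bp, 23977 bp from the nearest ES1 peak, where the ES1 minimum was 24. Long peaks of this kind reached many reads at low density, here at a score of 7.69. Chromosome 1, 134974844 to 134978392, was the widest ES3-alone peak at 3549 bp. It held 25 reads (16.2 to 36.9) against an ES1 minimum of 24, and lay only 280 bp from an ES1 peak. The third widest, of 3152 bp on chromosome 12, 8330724 to 8333875, held 21 reads (13.0 to 32.1), 3697 bp from an ES1 peak.

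The other regions with the most reads in ES3 alone were shorter. Chromosome 4, 136362271 to 136363964, held 25 reads (16.2 to 36.9) in 1694 bp at a score of 14.7, where the ES1 minimum was 14. It lay 715 bp from an ES1 peak. Chromosome 15, 73342037 to 73343999, held 25 reads (16.2 to 36.9) in 1963 bp against an ES1 minimum of 16, at 19077 bp from ES1. Chromosome 18, 43550735 to 43553468, and chromosome 2, 130275472 to 130278349, held 27 reads each (17.8 to 39.3), at 70590 and 25590 bp from ES1, with ES1 minima of 18 and 22. Chromosome 11, 117882706 to 117885387, held 26 reads (17.0 to 38.1) against a minimum of 21, and chromosome 4, 56866317 to 56869278, 23 reads (14.6 to 34.5) against 21.

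The 3 highest scores of ES3-alone regions came from short inner intervals. The highest, 37.4, belonged to chromosome 1, 164407447 to 164407964, where 16 reads (9.15 to 26.0) fell in 518 bp, 67572 bp from ES1. Chromosome 4, 15871858 to 15872832, had a score of 30.9 from 16 reads (9.15 to 26.0) in an inner interval of 517 bp, within a peak of 975 bp. Chromosome 18, 32306966 to 32307465, had a score of 29.4 from 13 reads (6.92 to 22.2) in 500 bp. These 3 regions were chosen after their values were seen.

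The choice of the 1526 regions required neither an ES2 peak nor its absence, but ES2 peaks took part in the merging. It left out 73 ES3 peaks that only an ES2 peak joined to ES1, which lowers the share with ES2 below. The subset of 623 is defined by an ES2 peak, so ES2 values within it are a description. An ES2 peak was present in 623 of the 1526 regions, or 40.8% (38.3 to 43.3). Among regions with both an ES1 and an ES3 peak, ES2 was present in 8205 of 9745, or 84.2% (83.5 to 84.9). Over all ES3 peaks, 77.4% shared bases with an ES2 peak. The 2 intervals do not overlap. With 1 list per name, this difference has no test against the spread between cultures.

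The lower share was seen at each read number. ES3 peaks with 8 to 10 reads met an ES2 peak in 37.1% (32.6 to 41.7) of the members and in 76.3% (74.2 to 78.3) of ES3 peaks in regions with ES1. With 11 to 13 reads the shares were 38.2% (34.1 to 42.3) and 77.4% (75.8 to 78.9), and with 14 to 17 reads 44.9% (39.8 to 50.1) and 80.0% (78.5 to 81.5). With 18 or more reads they were 52.1% (43.6 to 60.4) and 91.7% (90.8 to 92.6). Within members the share was thus higher in peaks with more reads, and the intervals of the lowest and highest class did not overlap.

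The same held within classes of width. Splitting each read class by ES3 peak width (under 1000 bp, 1000 to 1999 bp, 2000 bp or more) gave 12 classes, and the members had the lower share in all 12, with intervals apart in 11. The exception was peaks of 18 or more reads and under 1000 bp, with 9 members. Some of the 11 were small too, with wide intervals. Among peaks of 2000 bp or more, the class of 8 to 10 reads had 4 members (0.631 to 80.6%). The class of 11 to 13 reads had 17 (38.3 to 85.8%). In the largest class of members, peaks of 8 to 10 reads and under 1000 bp, 151 of 411 members met ES2, or 36.7% (32.1 to 41.6), against 795 of 1129, or 70.4% (67.7 to 73.1). The 73 ES3 peaks joined to ES1 through an ES2 peak enter the second group and all meet ES2. Counting ES3 peaks that touch no ES1 peak in place of regions gave 43.5% with ES2.

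**Figure D2:**
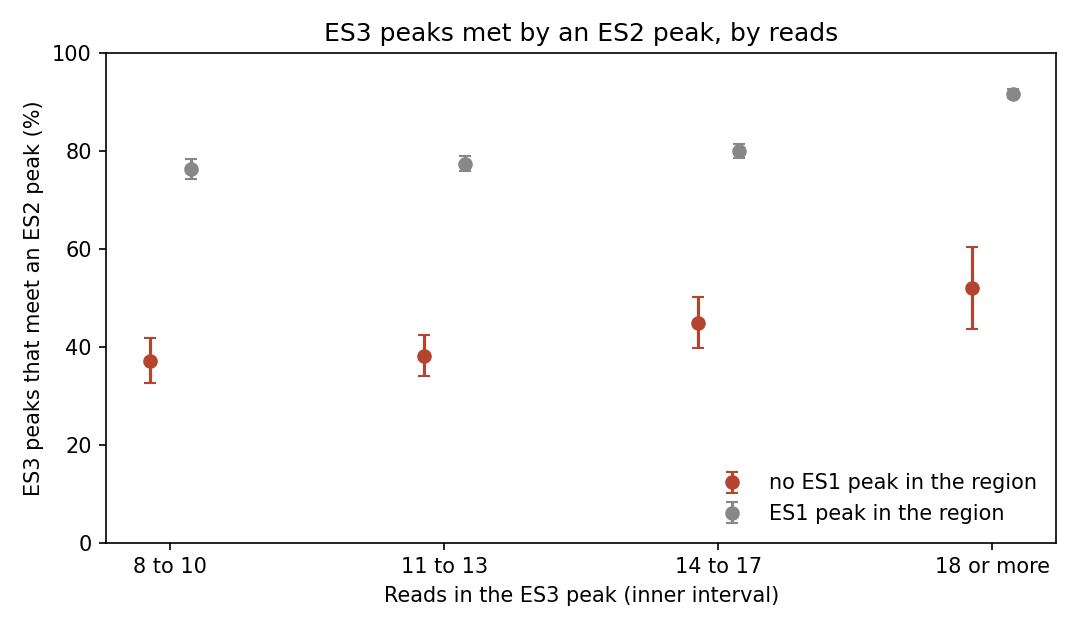
Points give the share of ES3 peaks that meet an ES2 peak (%, y axis) in classes of ES3 reads (x axis), for regions without an ES1 peak (red) and with one (grey), and bars are exact binomial 95% intervals. The red points rise from 37.1% to 52.1% and the grey points from 76.3% to 91.7%, with no overlap of the intervals in any class.

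The share was also taken from the side of ES2. Of the 4519 regions with an ES2 peak and no ES1 peak, 623 had an ES3 peak, or 13.8% (12.8 to 14.8). Of the 15596 regions with ES1 and ES2 peaks, 8205 did, or 52.6% (51.8 to 53.4). These shares set ES3 against ES1 status, as the rule does, and reuse the 623 and 8205 regions given above. They are a description and no separate support. ES2 peaks that shared a region with ES3 and not ES1 were wider and held more reads than ES2 peaks alone, with medians of 1255 bp and 14 reads against 1032 bp and 13 reads. Where ES1, ES2 and ES3 all had a peak, the ES2 peaks had medians of 2209 bp and 19 reads.

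In the 623 regions shared by ES2 and ES3, each list had 1 peak, and their sizes were set beside those of the 8205 regions in all 3 lists, where widths and reads were summed over the peaks of a list. ES2 was the wider in 376 of the 623 regions, or 60.4% (56.4 to 64.2), against 69.0% (68.0 to 70.0) of regions in all 3 lists. It held more reads in 370, or 59.4% (55.4 to 63.3), against 65.8% (64.8 to 66.8). ES2 also had the most reads in total of the 3 lists, and the part of depth in these counts was not tested. The median ES3 peak shared 81.7% of its bases with the ES2 peak, and the median ES2 peak shared 68.0% with the ES3 peak. The ES3 peak lay wholly inside the ES2 peak in 165 regions, or 26.5% (23.1 to 30.1), against 33.9% (32.8 to 34.9) of regions in all 3 lists. At least 50% of both peaks was shared in 341, or 54.7% (50.7 to 58.7), against 55.1% (54.0 to 56.2).

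Relative density, which takes the depth of each list and chromosome into account, was similar in ES2 and ES3. The regions were chosen for a called peak in both lists, so this likeness is a description and carries no test. The median score was 13.9 in ES2 and 14.8 in ES3, and the median ratio of ES3 to ES2 was 1.06 (quartiles 0.798 and 1.39). The ratio was 1.5 or more in 120 of the 623 regions (19.3%), beside 17.2% of all 8828 regions with both peaks. It was at most the inverse of 1.5 in 95 regions (15.2%), beside 14.8% of the 8828. Both shares lie near those of all regions with both lists.

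The regions at the ends of this range differed in the length over which reads were counted. Of the 120 regions with the higher ES3 density, 118 had the shorter inner interval in ES3, with medians of 580 bp in ES3 and 1594 bp in ES2. Of the 95 with the lower ES3 density, 93 had the longer inner interval in ES3. Density divides reads by this length, and over the 623 regions median reads were 13 in ES3 and 14 in ES2. Unequal lengths at the ends, and ratios nearer 1 at like lengths, are thus partly built into the measure. Where both inner intervals were within 1.25 times of each other, 193 regions remained, and the median ratio was 1.01 (quartiles 0.889 and 1.14). There the ratio reached 1.5 in 4 regions (2.07%) and its inverse in 5 (2.59%). The 1931 regions of all 3 lists with like lengths gave 3.00% and 5.23%.

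**Figure D3:**
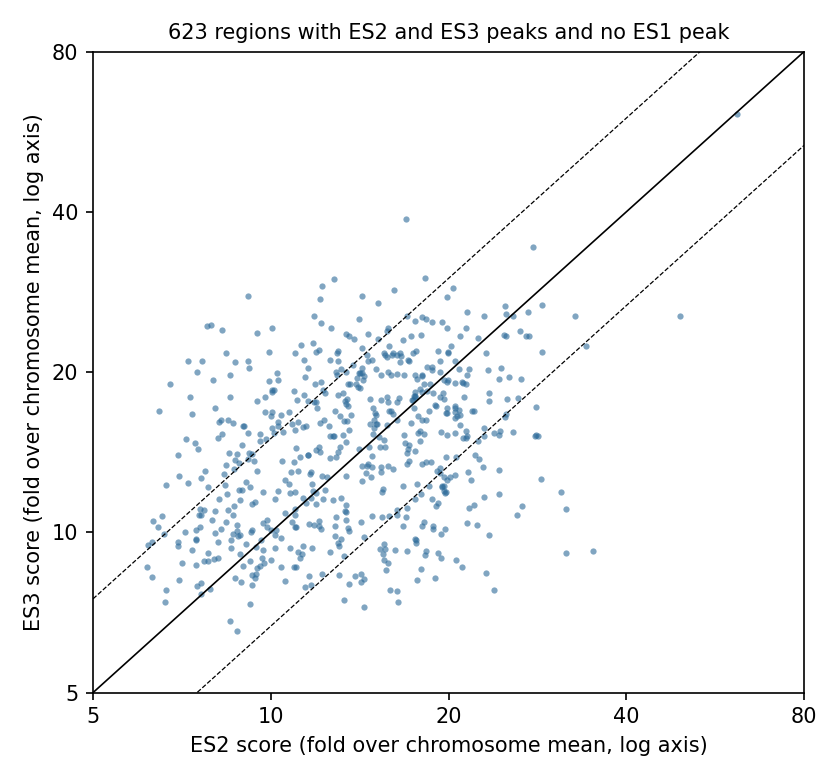
Each of the 623 points is a region with ES2 and ES3 peaks and no ES1 peak, placed by its ES2 score (x axis) and ES3 score (y axis), both as fold over the chromosome mean on log axes; the solid line marks equal scores and the dashed lines a ratio of 1.5 either way. The median ratio is 1.06, with 120 points on or above the upper dashed line and 95 on or below the lower, and the point at the upper right is the region of chromosome 9 with scores of 61.0 and 61.5.

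That point was the densest region of the whole set. At chromosome 9, 24346237 to 24346773, ES3 had 32 reads (21.9 to 45.2) and ES2 36 reads (25.2 to 49.8), each in an inner interval of 500 bp. The scores were 61.0 in ES3 and 61.5 in ES2, a ratio of 0.991. It lay 153470 bp from the nearest ES1 peak, and the ES1 minimum there was 9. The merged region was 537 bp wide, close to the 500 bp of the shortest peaks.

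The most ES3 reads among shared regions lay on chromosome 4, 145628308 to 145632723. ES3 held 38 reads (26.9 to 52.2) over 3705 bp and ES2 38 reads (26.9 to 52.2) over 4416 bp, and the ES2 peak contained the whole ES3 peak. The region was 8068 bp from ES1, where the minimum was 27. A region of like shape on chromosome 9, 20951152 to 20954527, held 26 reads in both lists (17.0 to 38.1), over 3350 bp in ES3 and 3355 bp in ES2, with 3329 bp shared and 2808 bp to the nearest ES1 peak. The ratio of ES3 to ES2 density was 1.35 in the first of these regions and 1.12 in the second.

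Other wide regions were called differently by the 2 lists. On chromosome 16, 4638972 to 4642672, the ES3 peak held 29 reads (19.4 to 41.6) over 3701 bp, while the ES2 peak inside it spanned 501 bp with 15 reads (8.40 to 24.7). On chromosome 7, 135087776 to 135091982, ES3 held 29 reads (19.4 to 41.6) over 3849 bp and ES2 17 reads (9.90 to 27.2) over 1195 bp. The widest ES3 peak of the set, 4172 bp, lay in the merged region of chromosome 2, 27322785 to 27329058. This ES3 peak had 16 reads (9.15 to 26.0) in an inner interval of 1375 bp. The ES2 peak of the region had 25 reads (16.2 to 36.9) over 3184 bp. Chromosome 10, 115990079 to 115993776, held 31 ES3 reads (21.1 to 44.0) over 3698 bp and 25 ES2 reads (16.2 to 36.9) over 2540 bp. The ES3 reads did not exceed the ES1 minimum on chromosome 16 (31), chromosome 7 (32) or chromosome 10 (31).

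The extremes of the density ratio had inner intervals of very unequal length. The highest ratio, 3.13, was on chromosome 6, 34124708 to 34127232, with 17 ES3 reads (9.90 to 27.2) in 688 bp and 22 ES2 reads (13.8 to 33.3) in 2525 bp. The lowest, 0.263, was on chromosome 3, 86909358 to 86911303, with 14 ES3 reads (7.65 to 23.5) in 1938 bp and 15 ES2 reads (8.40 to 24.7) in 501 bp. Scaled by the same counting intervals, the densities were 14.2 to 39.1 (ES3) and 4.89 to 11.8 (ES2) on chromosome 6, and 5.04 to 15.5 (ES3) and 19.6 to 57.9 (ES2) on chromosome 3. These ranges do not overlap, but the regions were picked for their ratio, and each list's reads were counted over a different interval. Chromosome 15, 88769001 to 88770745, had a ratio of 3.03 with more reads in ES3, 21 (13.0 to 32.1) in 748 bp, than in ES2, 14 (7.65 to 23.5) in 1324 bp. Its densities were 17.2 to 42.4 and 5.01 to 15.4.

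On chromosome 18, 47008936 to 47010221, the ES3 density was 1.65 times that of ES2. Scaled by the counting intervals, the densities were 19.6 to 44.0 (ES3) and 11.4 to 27.6 (ES2), which overlap. ES3 held 26 reads (17.0 to 38.1) in 979 bp and ES2 22 reads (13.8 to 33.3) in 1231 bp, with 948 bp shared. It lay 63670 bp from ES1, and the ES1 minimum was 10. After the region on chromosome 9 it had the most ES3 reads of the 27 whose lower Poisson limit lay above the ES1 minimum.

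Most regions lay several kb away from any ES1 peak, and a few lay in long stretches without one. The median distance to the nearest ES1 peak was 9970 bp for ES3 alone and 9296 bp for ES2 and ES3. Regions of ES2 alone, which also lack ES1, had a median of 9858 bp. Within 5 kb of an ES1 peak lay 33.4% (30.4 to 36.6) of the ES3-alone regions, 32.3% (28.6 to 36.1) of those shared with ES2, and 32.1% (30.6 to 33.6) of the ES2-alone regions. Over 100 kb away lay 8.53% (6.79 to 10.5), 6.58% (4.76 to 8.82) and 8.75% (7.88 to 9.68). The intervals of all 3 sets overlap for both shares. At the near end, 10% of the regions lay within 1502 bp (ES3 alone), 2113 bp (ES2 and ES3) and 1872 bp (ES2 alone).

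**Figure D4:**
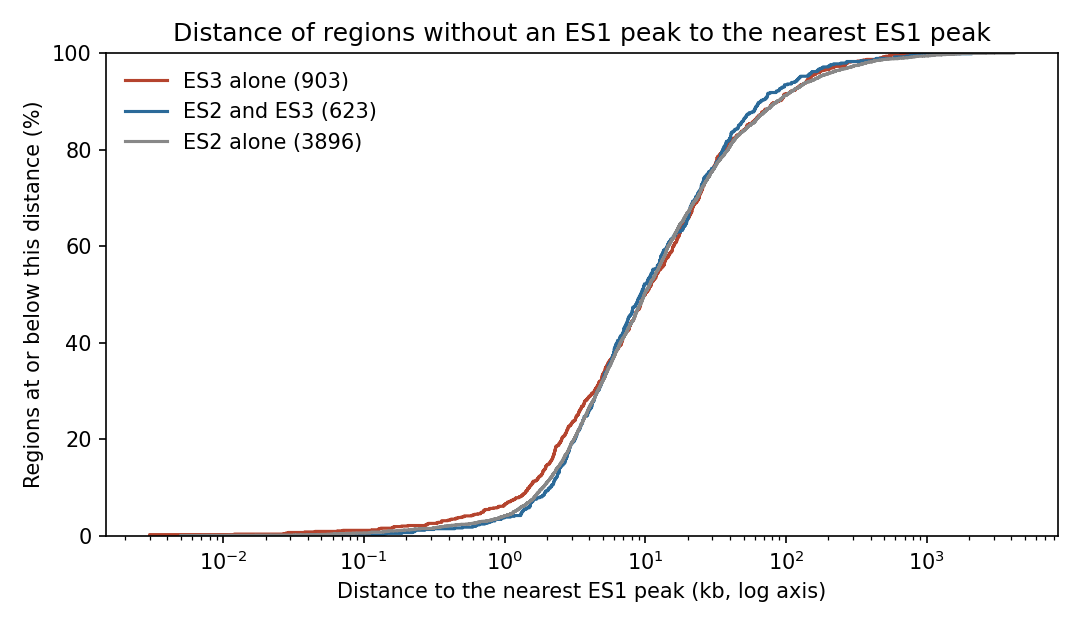
Lines give the share of regions (%, y axis) whose distance to the nearest ES1 peak is at or below the value on the x axis (kb, log axis), for ES3 alone (red), ES2 and ES3 (blue) and ES2 alone (grey). The lines run close together, with medians of 9970, 9296 and 9858 bp, and the red line starts at the shortest distances, with 10% of its regions within 1502 bp.

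ES2 presence was then read by distance. ES2 was present in 40.0% (35.7 to 44.4) of the 503 regions within 5 kb of ES1, in 41.6% (37.3 to 46.1) of the 497 between 5 and 20 kb, and in 42.6% (37.8 to 47.6) of the 408 between 20 and 100 kb. Over 100 kb it was present in 34.7% (26.2 to 44.1) of 118 regions. The intervals of all 4 classes overlap.

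For the 503 regions within 5 kb of ES1, the neighbouring ES1 peak was close to the rest of its list in width. Its median width was 1832 bp, against 1693.5 bp for all ES1 peaks. In 183 cases, or 36.4% (32.2 to 40.8), it belonged to a region that ES3 also called, near the 38.7% of all ES1 peaks. In 182 cases, or 36.2% (32.0 to 40.6), it belonged to a region of ES1 alone, beside 32.5% of all ES1 peaks.

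The 118 regions over 100 kb from ES1 held 8 to 32 ES3 reads with a median of 11, against 12 over all members. Chromosome 1, 113760748 to 113761754, shared with ES2, lay 2096979 bp from the nearest ES1 peak, with 8 ES3 reads (3.45 to 15.8) and 13 ES2 reads (6.92 to 22.2). Chromosome 5, 84845120 to 84846604, of ES3 alone, lay 1754298 bp away with 13 reads (6.92 to 22.2). Chromosome 7, 22050313 to 22051424, also of ES3 alone, lay 1514179 bp away with 12 reads (6.20 to 21.0). None of these 3 exceeded the ES1 minimum by more than 1 read.

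The surroundings of the members were compared through regions called in all 3 lists, which the rule did not select. The median distance to the nearest such region was 35776 bp for ES3 alone and 39678 bp for ES2 and ES3, against 32270 bp for ES1 and ES3 without ES2 and 38427 bp for ES2 alone. No such region lay within 50 kb for 43.5% (40.3 to 46.8) of the ES3-alone regions and 44.9% (41.0 to 48.9) of those shared with ES2. The share was 41.1% (38.6 to 43.6) for ES1 and ES3 without ES2 and 45.2% (43.6 to 46.8) for ES2 alone. Of the regions of all 3 lists themselves, 30.8% (29.8 to 31.8) had no other of their kind within 50 kb. The intervals of both subsets overlap those of the other regions called in 1 or 2 lists just named, and lie above that of regions in all 3.

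The members were spread over the genome, with a median of 613244 bp between neighbours. Of 1507 neighbouring pairs, 36 lay within 10 kb and 132 within 50 kb. Runs of at least 4 members within 200 kb, with overlapping runs joined, numbered 9 and held 37 members. Each run also held ES1 peaks, 2 to 15 of them, so none was a stretch without ES1. The run with the fewest was on chromosome 16, 90164959 to 90234431, where 4 members and 2 ES1 peaks lay within 69.5 kb, with 9 to 19 ES3 reads per member. The run with the most members was on chromosome 5, 115616268 to 115843038, with 5 members among 15 ES1 peaks over 227 kb.

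By chromosome, the share of ES3 regions without an ES1 peak ran from 10.4% to 17.8%. It was 17.8% (14.8 to 21.2) on chromosome 17, with 104 of 583 regions, above the 13.5% of all autosomes. It was 10.4% (8.30 to 12.9) on chromosome 8, 10.6% (8.52 to 12.9) on chromosome 6 and 10.7% (8.47 to 13.2) on chromosome 2. The intervals of these 4 excluded 13.5%, and those of the other 15 of 19 chromosomes included it. No adjustment was made for comparing 19 chromosomes. Per length, chromosome 17 had 10.9 members per 10 Mb and chromosome 3 had 3.88. Regions with an ES3 peak were also denser on chromosome 17, with 583 in 95272651 bp, than on chromosome 3, with 503 in 159599783 bp. The share of members with an ES2 peak ranged from 32.3% on chromosome 5 (30 of 93) to 48.2% on chromosome 9 (41 of 85), beside 40.8% of all members. These are the extremes of 19 chromosomes with few members each. No interval was taken for them, and no difference is read from them.

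**Figure D5:**
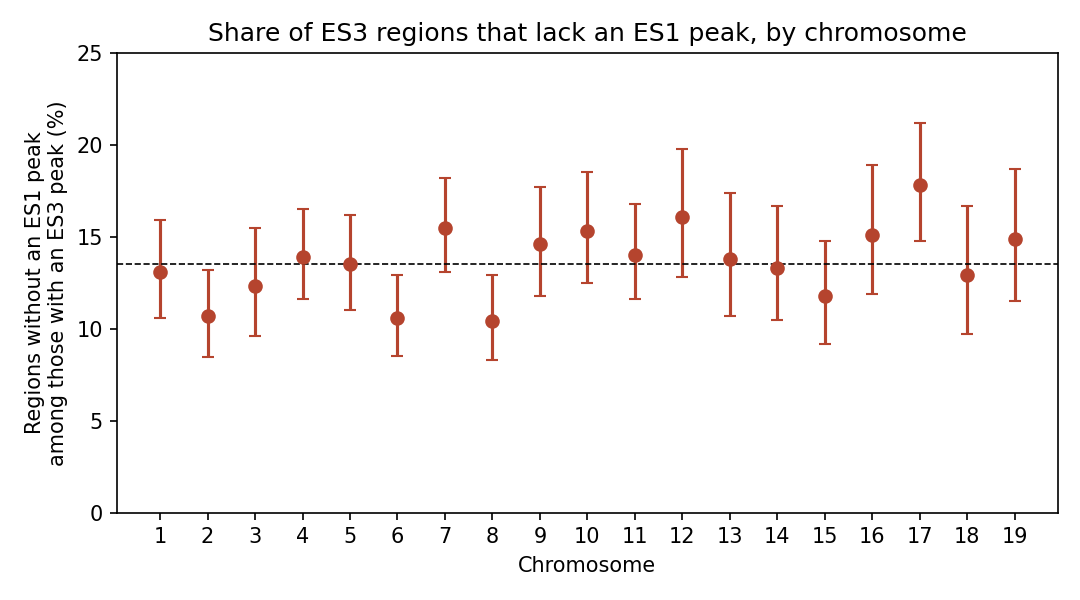
Points give the share of regions with an ES3 peak that lack an ES1 peak (%, y axis) on each autosome (x axis), with exact binomial 95% intervals as bars, and the dashed line marks the 13.5% of all autosomes. Chromosome 17 at 17.8% lies above the line, and chromosomes 2, 6 and 8 at 10.4% to 10.7% lie below it.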

How the data were processed

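The authors deposited 3 peak lists, ES1, ES2 and ES3. Reads were aligned with Bowtie to mm9, per the submitters' processing notes. For the Bowtie version and the peak caller, the sources used here give nothing. The deposited score of each peak has no stated unit. Score times inner-interval length came to a whole multiple (tolerance 0.001) of a unit fixed within each chromosome and list, for 100% of peaks, and the multiple was taken as reads, an assumption. Positions are printed with 1-based starts. Peaks were merged where they touched or overlapped, and lists were compared by presence of a peak, with at least 1 bp for an overlap. Nothing was tested, as there are no replicates. Recovery and interval code were checked on simulated data. Python 3.11.15, pandas 2.3.3 and scipy 1.17.1 were used.

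Regions named are the 8 with the most ES3 reads and the 5 with the widest ES3 peaks per subset, the 5 highest and 5 lowest ES3 to ES2 densities, the 5 nearest to and 5 farthest from ES1, and runs of 4 members, from which examples are given. The regions whose lower Poisson limit lay above the ES1 minimum, and the 3 highest scores of ES3 alone, were added after their values were seen. The members, the rule and the comparisons were chosen with earlier results of these data known. Gene lists and cell type markers listed at the outset were not used, since no mm9 annotation was at hand.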

Additional observations from a re-analysis of the deposited data

Results flagged for a closer look

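Chromosome X, which the main counts leave out, held 60 regions with an ES3 peak and no ES1 peak, 36 of ES3 alone and 24 shared with ES2. They were picked out because they lie outside the data used above. They made up 40.0% (32.1 to 48.3) of the 150 regions on X with an ES3 peak, against 13.5% on the autosomes. Their ES3 peaks held 6 to 17 reads with a median of 8, fewer than the autosomal median of 12. Whether the lower read numbers on X bear on this share was not tested.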

How the results depend on the processing

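Across 38 values under alternatives, 21 stayed within 1.5 times the main count or within the interval of the main value, and 17 did not. Not all of the 21 could have moved, so their number is no measure of stability. Leaving out regions with the 10 highest scores of a list removed no member, so those medians were fixed. Adding the 60 regions of chromosome X could not change the count of 1526 by 1.5 times. The count of 1526 regions, 903 without and 623 with ES2, depended on what counts as present. Requiring lists to cover 50% of the ES3 bases gave 2609 in all, 1584 without ES2 and 1025 with it. Shortening ES1 and ES2 to the 12239 peaks of ES3 by reads gave 5144, 3220 and 1924. Ranked by score, the upper 6119 ES3 peaks gave 935, 555 and 380. Ranked by reads, they gave 446, 232 and 214. Both use fewer ES3 peaks by construction. Keeping only regions at least 5 kb from ES1 gave 601 without ES2, again a subset by construction. Shortening ES1, or asking it to cover 50%, can only add to the count in all, also by construction. Asking ES2 to cover 50% of the ES3 peak can likewise only lower the share with ES2. For the other changes the cause was not tested. The share with ES2, 40.8%, was 31.6% where ES2 had to cover 50% of the ES3 peak, 37.4% with shortened lists and 43.5% with ES3 peaks in place of regions. Merging peaks within 1 kb moved the median distance to ES1 from 9608.5 to 11059 bp. By construction it left out the regions within 1 kb of an ES1 peak. Median width and score were recomputed only with peaks within 1 kb merged, with chromosome X added, and without the 10 highest scores. They stayed within their intervals there, where the last change removed no member. They were not recomputed for 50% cover, shortened lists, the upper ES3 peaks or the distance of 5 kb. The alternatives for the share with ES2, and ES3 peaks in place of regions, were chosen after the data were seen. Those for transcription starts were not run, for lack of an mm9 annotation. No paired analysis was possible because the lists carry no replicate numbers. A region missing from ES1 is not shown to be unmarked there, since the weakest autosomal peaks of a list held 8 to 10 reads.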
